A study of Mus musculus with 12 samples.

Results

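Interferon-stimulated genes (ISGs) were followed in gonadal white adipose tissue (GWAT) as 39 genes, picked by symbol from the 55281 genes of the deposited count table. The rule itself used symbols and no measured value, although the list was drawn up with earlier results of these data known. All 39 passed the filter on low counts that left 18427 genes for testing. They were grouped by role into 9 members of the Ifit and Oas families, 5 RNA sensors and transcription factors, Isg15 with its protease gene Usp18, 8 other antiviral effectors, 9 members of the Gbp and Irg families, and 6 membrane, nuclear or secreted members.

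As background, type I interferons are secreted after cells sense viral or misplaced nucleic acid, and they signal through the receptor IFNAR to a complex that contains STAT2 and IRF9. That complex binds the interferon-stimulated response element (ISRE) in the promoters of genes such as the Ifit and Oas families. Type II interferon, made mainly by T and NK cells, signals through its own receptor to promoters with the gamma-activated sequence (GAS), and it is the classical inducer of the GTPases of the Gbp and Irg families. In adipose tissue both resident cells and infiltrating macrophages can express these genes.

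The mice were males in which Hoip (Rnf31), the catalytic subunit gene of the linear ubiquitin chain assembly complex, carried loxP-flanked alleles. HoipA-KO mice were Hoip fl/fl AdipoQ.Cre+, with Cre under the adiponectin promoter and so active in mature adipocytes, and WT mice were Hoip fl/fl AdipoQ.Cre- littermates that carried the same floxed alleles. From 6 weeks of age they received a control diet (CD, 14% fat) or a high-fat diet (HFD, 60% fat) for 16 weeks. Each library held polyadenylated RNA from the pooled GWAT of 3 mice, and there were 3 libraries in each of 4 groups, WT CD, HoipA-KO CD, WT HFD and HoipA-KO HFD, with totals of 30513446 to 60540225 counts. A p-value therefore measured the spread between pools.

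WT CD replicate 3 stood apart. Its summed level of 8 sperm cell markers, a list added after the data were seen, was 8676 CPM (counts scaled to a common library total, not corrected for gene length), against 429 CPM in WT CD replicate 2 and at most 18.4 CPM in the other 10 libraries. The study left this library out of its own comparisons, and the tests below used the other 11 libraries with the 12-library value given where it changed a call. WT CD replicate 2 carried 19103 CPM of 8 epididymal epithelium markers and HoipA-KO HFD replicate 1 carried 1608 CPM, while the other 10 libraries held at most 97.0 CPM. Rnf31 itself, read over the whole gene in whole tissue, lay at 12 to 20.9 CPM in WT CD, 17.7 to 21.8 in HoipA-KO CD, 18.2 to 20.03 in WT HFD and 18.8 to 22.5 in HoipA-KO HFD, and did not pass the test on either diet (quasi-likelihood test of edgeR, Benjamini-Hochberg adjusted p = 0.654 on CD and 0.491 on HFD). The adipocyte markers that define the tissue summed to 13066 to 49290 CPM in WT CD and 6084 to 9204 CPM in HoipA-KO CD.

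Promoter sequence is shown for 8 members, chosen to set genes that differed between the genotypes beside genes of the same families that did not pass the test. RefSeq windows (GRCm38.p6, 250 bases before to 50 after the transcription start) were found for 31 of the 39 genes. The ISRE core GAAANNGAAA was searched on both strands, and the GAS core TTCNNNGAA, which reads the same on either strand, was searched alongside it. In the 170 bases directly before the start, written 5′ to 3′ on the strand of the gene, capitals mark every match to either core, and adjoining or overlapping matches run together.
Isg15, chr4:156200819-156200988, minus strand: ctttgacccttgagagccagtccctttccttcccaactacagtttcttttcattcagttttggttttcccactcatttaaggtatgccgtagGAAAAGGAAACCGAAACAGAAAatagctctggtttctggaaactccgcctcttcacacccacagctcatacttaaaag
Ifit3, chr19:34583359-34583528, plus strand: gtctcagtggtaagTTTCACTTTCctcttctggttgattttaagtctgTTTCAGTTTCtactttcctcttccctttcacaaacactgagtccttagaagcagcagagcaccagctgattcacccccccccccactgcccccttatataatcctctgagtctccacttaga
Oas1a, chr5:120907526-120907695, minus strand: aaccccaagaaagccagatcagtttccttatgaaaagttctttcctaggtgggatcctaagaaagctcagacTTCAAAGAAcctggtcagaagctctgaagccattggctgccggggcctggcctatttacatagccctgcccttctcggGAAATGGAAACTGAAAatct
Oas3, chr5:120777660-120777829, minus strand: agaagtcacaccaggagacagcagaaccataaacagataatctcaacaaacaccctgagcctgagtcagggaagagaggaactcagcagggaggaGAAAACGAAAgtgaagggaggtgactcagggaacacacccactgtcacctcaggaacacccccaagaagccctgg
Irgm1, chr11:48871421-48871590, minus strand: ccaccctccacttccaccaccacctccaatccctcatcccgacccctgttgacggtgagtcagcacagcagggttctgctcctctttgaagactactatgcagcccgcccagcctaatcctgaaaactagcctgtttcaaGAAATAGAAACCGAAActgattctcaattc
Igtp, chr11:58199386-58199555, plus strand: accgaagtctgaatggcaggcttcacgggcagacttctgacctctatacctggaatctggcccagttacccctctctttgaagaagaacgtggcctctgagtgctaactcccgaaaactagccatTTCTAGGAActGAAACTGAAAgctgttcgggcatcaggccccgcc
Gbp7, chr3:142530166-142530335, plus strand: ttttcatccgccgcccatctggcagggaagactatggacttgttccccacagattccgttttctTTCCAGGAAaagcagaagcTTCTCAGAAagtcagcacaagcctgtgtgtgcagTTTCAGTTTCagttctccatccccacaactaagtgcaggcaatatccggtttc
Trim30a, chr7:104465194-104465363, minus strand: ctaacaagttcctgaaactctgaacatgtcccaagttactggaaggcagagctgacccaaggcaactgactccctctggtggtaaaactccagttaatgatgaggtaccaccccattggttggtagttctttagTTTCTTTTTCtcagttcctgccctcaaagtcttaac

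An ISRE core was present in 19 of the 31 member windows (61.3%), against 3.99% of the 27025 genes of the RefSeq table. A GAS core was present in 9 (29%), against 9.55% of all genes. The families did not separate by these letters, since 5 of 8 Ifit and Oas windows and 7 of 8 Gbp and Irg windows held an ISRE core, and 2 of 8 and 4 of 8 held a GAS core. Isg15 carried overlapping ISRE cores starting at −78, −72 and −66 from the transcription start. Igtp carried a GAS core at −45 and an ISRE core at −34, and Irgm2 carried the same pair at −75 and −64. A match is a description of the letters, and binding was not measured here.

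**Figure D1:**
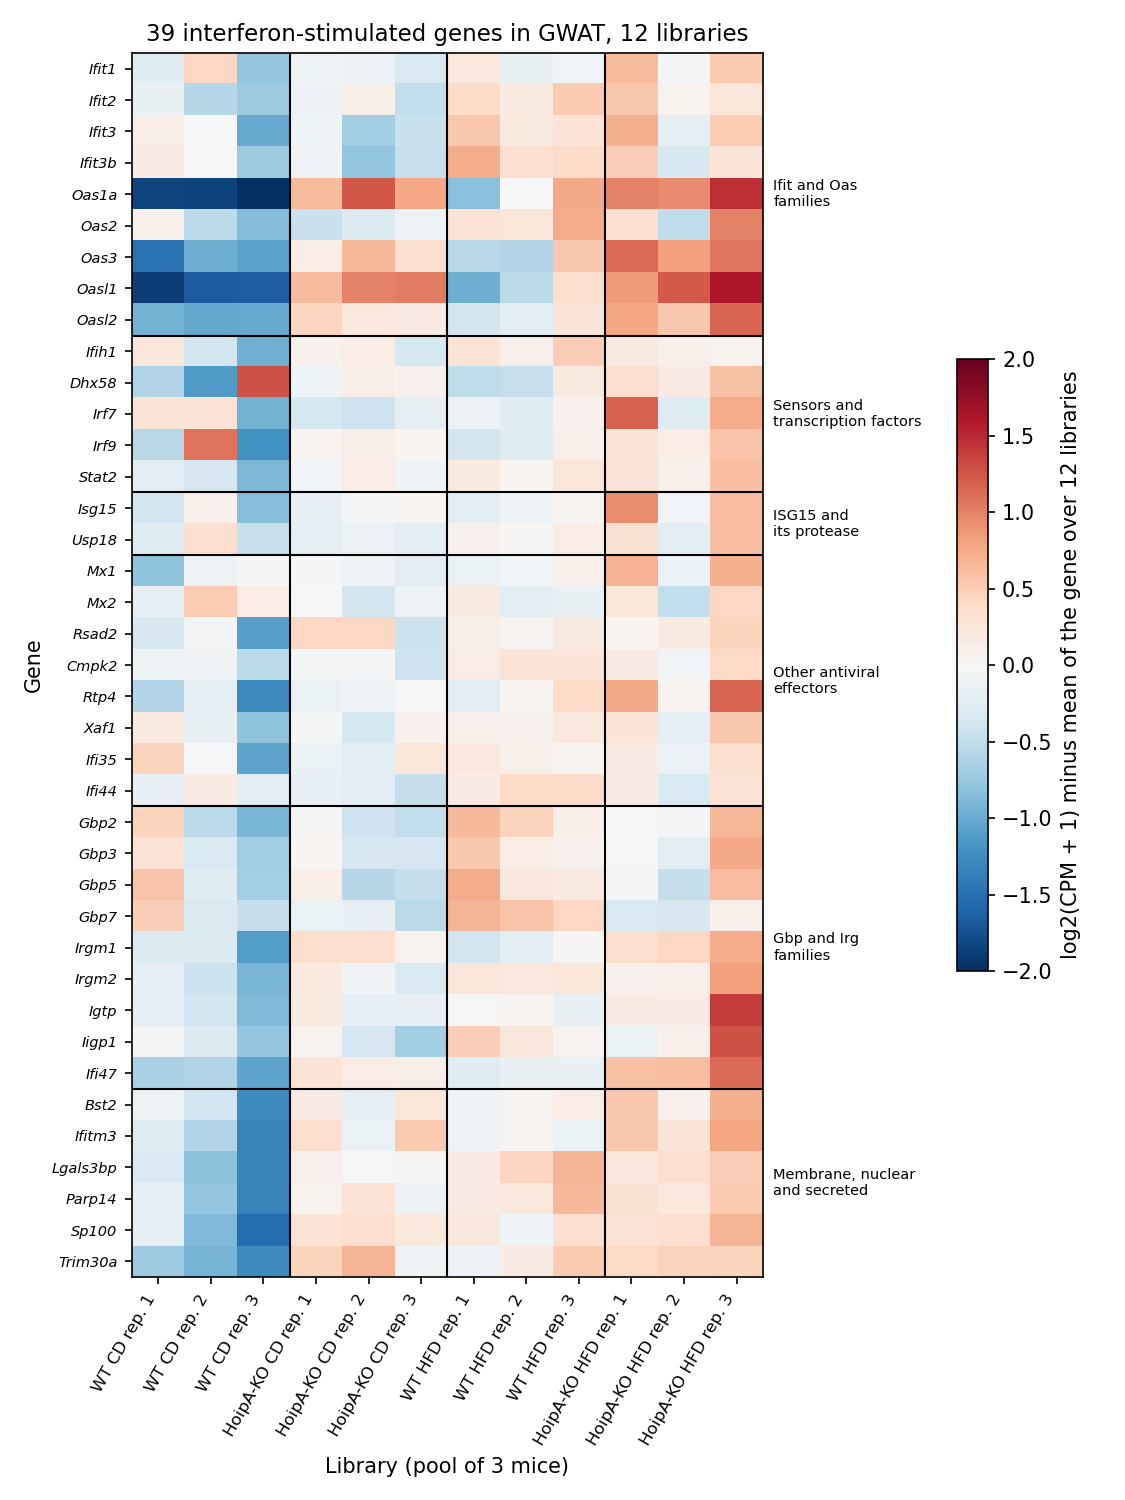
Levels of the 39 genes (rows, by class) in the 12 libraries (columns, by group), as log2(CPM + 1) minus the mean of each gene over the 12 libraries. Oas1a, Oas3, Oasl1 and Oasl2 are low in all 3 WT CD libraries, 30 of the 39 genes have their lowest value in WT CD replicate 3, and 21 have their highest in HoipA-KO HFD replicate 3. Over all tested genes 27.9% are lowest in the former library and 6.07% highest in the latter.

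The plot of all members by library shows that the list did not move as a block. On the log2(CPM + 1) scale the mean level of the 9 Ifit and Oas genes ran from 2.23 to 2.66 in WT CD, 3.40 to 3.50 in HoipA-KO CD, 3.29 to 3.77 in WT HFD and 3.64 to 4.22 in HoipA-KO HFD, so WT CD lay below every other library. The mean level of the 9 Gbp and Irg genes ran from 3.63 to 4.51, 4.15 to 4.59, 4.56 to 4.76 and 4.50 to 5.30 in the same order, and the WT CD and HoipA-KO CD libraries overlapped. The difference between the class means, Ifit and Oas minus Gbp and Irg, was −1.85, −1.43 and −1.40 in WT CD and −1.12, −0.79 and −0.75 in HoipA-KO CD. It was −1.48, −1.34 and −0.79 in WT HFD and −0.48, −0.87 and −1.08 in HoipA-KO HFD. The groups were apart on CD and overlapped on HFD. CPM is not corrected for gene length, so this difference is read between libraries and not as more RNA of either class.

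The genotype comparison on CD asked how GWAT lacking HOIP in adipocytes differed in the lean state. Of the 39 genes 11 were higher in HoipA-KO than in WT, namely Oas1a, Oas3, Oasl1, Oasl2, Dhx58, Irgm1, Ifi47, Ifitm3, Lgals3bp, Sp100 and Trim30a, and 0 were lower. That is 28.2% of the members called higher, where 37.7% of all genes tested were called, 18.9% higher and 18.8% lower (quasi-likelihood test of edgeR, Benjamini-Hochberg adjusted over 18427 genes, threshold 0.05). At an unadjusted p under 0.05 the counts were 12 higher and 0 lower, beside 8921 of all 18427 genes in either direction. DESeq2's Wald test called 12 higher and 0 lower, beside 20.9% and 23.3% of all genes. The median log2 fold change of the members was 0.26, beside −0.06 for all genes. In the 11 libraries fitted, 15 members lay above both WT values in every HoipA-KO library and 4 lay below them (Ifit3, Ifit3b, Irf7 and Ifi44), against 27.2% and 26.8% of all genes. The count of 11 fell to 7 without HoipA-KO CD replicate 2, where 2815 of 18376 genes were called higher. Without WT CD replicate 2 only 1 WT CD library was left, so no count is read from that fit. The log2 fold changes of Dhx58, Lgals3bp and Sp100 were then lower, at 0.76, 0.38 and 0.52. Those of Oas3, Oasl1, Irgm1 and Ifi47 were higher, at 3.58, 3.68, 0.62 and 0.96. With 12 libraries 11 members were higher, with Parp14 in place of Dhx58, beside 15.6% of all genes, and the median of all genes was −0.21.

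**Figure D2:**
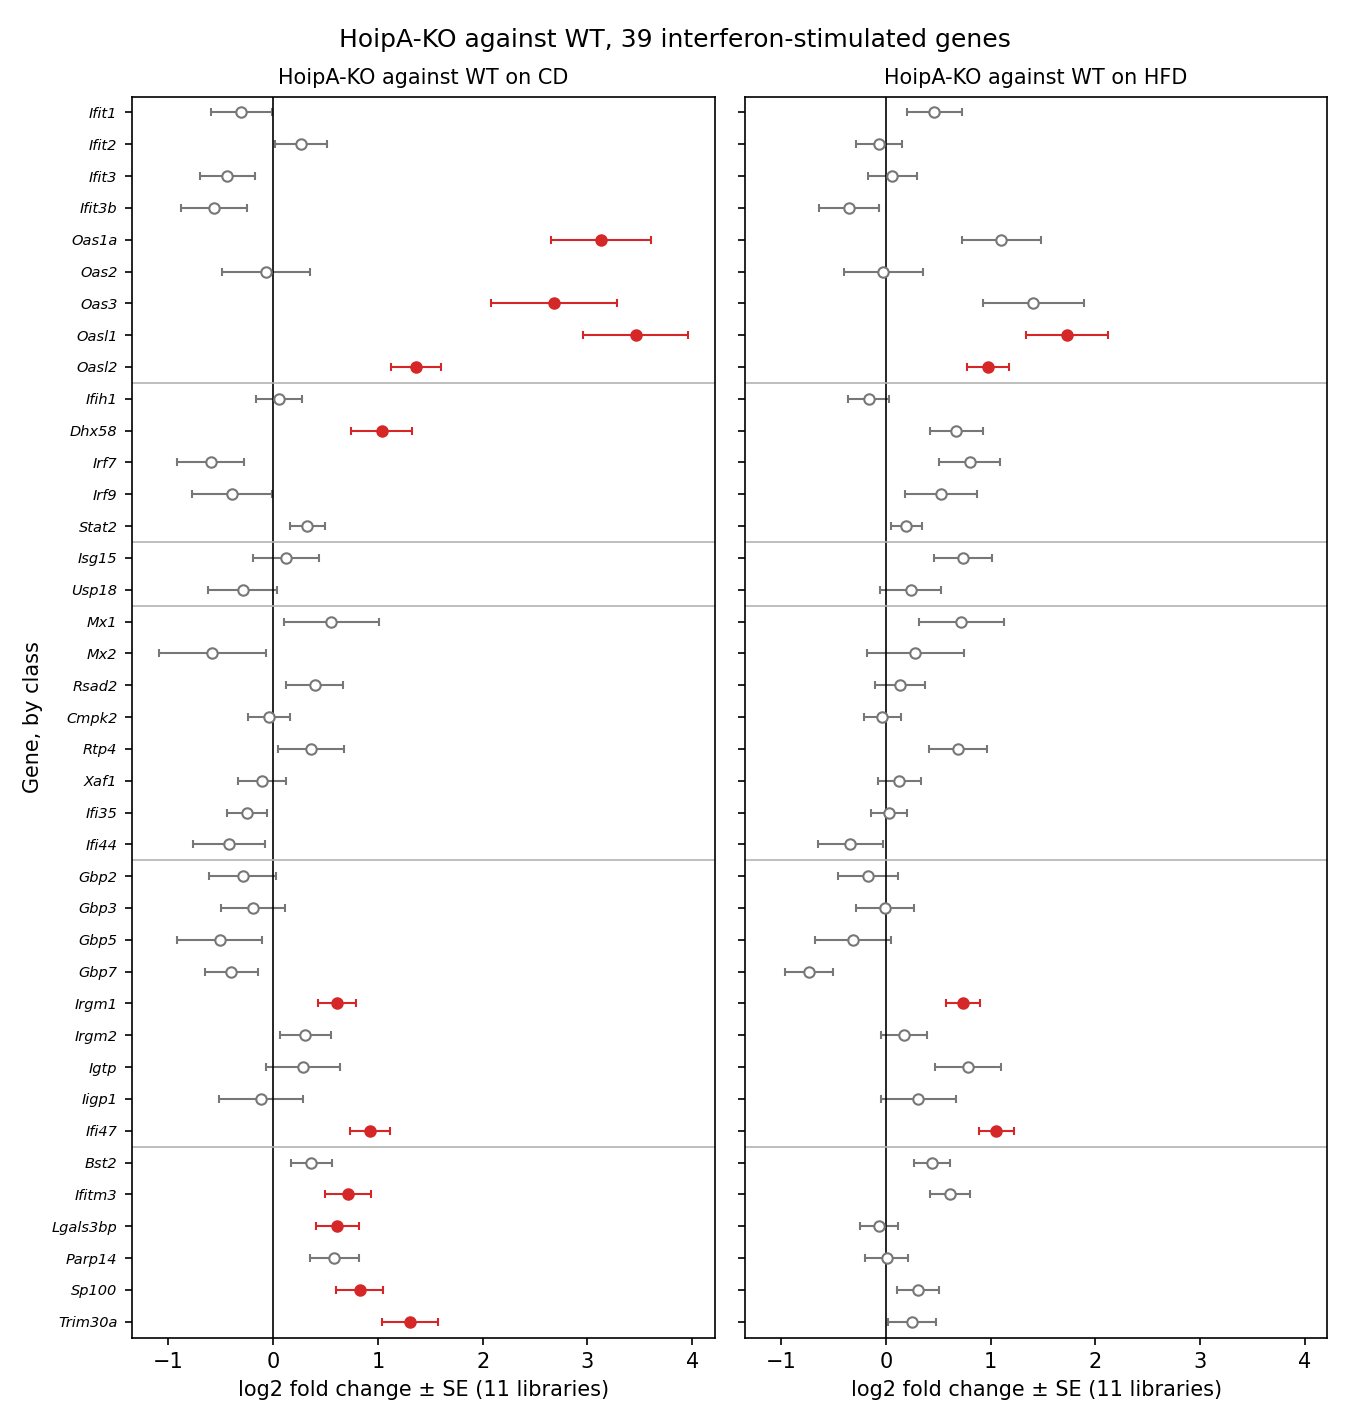
Log2 fold change of HoipA-KO against WT with its standard error (SE) for the 39 genes on CD (left) and on HFD (right), from the fit of 11 libraries, with the classes set apart by lines. Filled red points passed an adjusted p of 0.05, and open grey points did not; the 3 largest estimates on CD are those of Oasl1, Oas1a and Oas3.

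The Oas genes encode enzymes that make 2′-5′-oligoadenylates on binding viral RNA and so activate RNase L, and the Oasl genes encode related proteins that modulate antiviral sensing. Oas1a lay at 3.26, 3.21 and 2.18 CPM in the 3 WT CD libraries and at 22.7, 35.1 and 24.9 CPM in HoipA-KO CD. The groups were far apart, with a log2 fold change of 3.13 ± 0.48 (SE, adjusted p = 0.00122). Oasl1 lay at 1.05, 1.37 and 1.41 CPM in WT CD and at 10.7, 14.0 and 14.4 CPM in HoipA-KO CD. It had the largest estimate of the list, 3.46 ± 0.50 (SE, adjusted p = 0.000978). Oasl2 lay at 12.7, 12 and 12.2 CPM in WT CD and at 34.8, 29.6 and 28.6 CPM in HoipA-KO CD, a log2 fold change of 1.36 ± 0.24 (SE, adjusted p = 0.00229). Oas3, named after its values were seen, rose from 0.341, 0.921 and 0.803 CPM to 3.21, 4.94 and 3.75 CPM, a log2 fold change of 2.68 ± 0.60 (SE, adjusted p = 0.00775). The remaining family member, Oas2, was at 8.16, 4.93 and 3.65 CPM in WT CD and 5.27, 6.06 and 6.92 CPM in HoipA-KO CD, and the groups overlapped (log2 fold change −0.07, adjusted p = 0.911). The 3 genes Oas1a, Oas2 and Oas3 lie within chr5:120730333-120907544, so neighbours in this locus had unlike estimates. Of the 31-base words in Oas1a transcripts, 68.7% also occur in transcripts of Oas1g, so the counts of the pair are uncertain against each other. Oas1g was estimated at 2.30 ± 0.60 (SE, adjusted p = 0.0153).

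The Ifit genes encode tetratricopeptide proteins that bind viral RNA and are among the most strongly induced targets of type I interferon. None of the 4 passed the test on CD, with 0 also at an unadjusted p under 0.05 and 0 by DESeq2. Ifit3 lay at 21.0, 18.9 and 8.95 CPM in WT CD and at 18.1, 11.3 and 13.7 CPM in HoipA-KO CD. Without WT CD replicate 3 the HoipA-KO values lay below both WT values, and the log2 fold change was −0.44 ± 0.26 (SE, adjusted p = 0.21). The estimates of the family ran from −0.56 for Ifit3b to 0.26 for Ifit2. All 4 genes lie next to each other at chr19:34550550-34650009. Ifit3 shares 61.8% of its words with Ifit3b, so these 2 are not separate evidence.

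**Figure D3:**
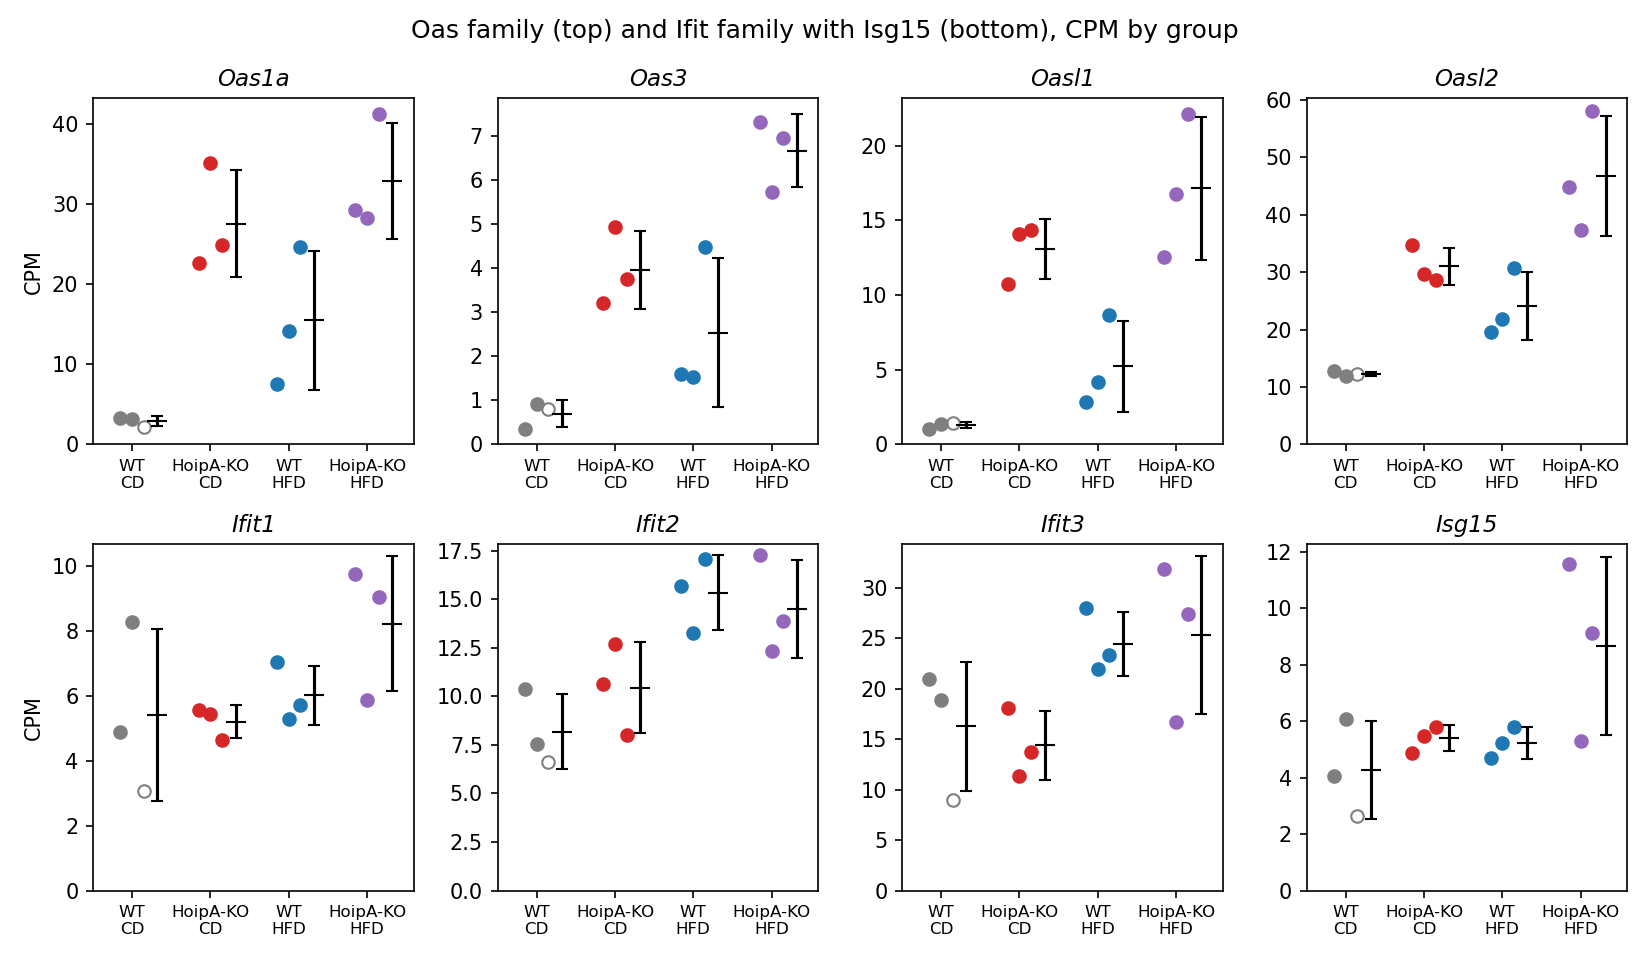
CPM of Oas1a, Oas3, Oasl1 and Oasl2 (top) and of Ifit1, Ifit2, Ifit3 and Isg15 (bottom) in each library, with the black bar giving the mean ± SD of the 3 libraries of a group. The open circle is WT CD replicate 3, which was not in the 11-library fit; the top row separates WT CD from HoipA-KO CD and the bottom row does not.

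Isg15, the ubiquitin-like modifier that is itself a standard ISG, lay at 4.07, 6.08 and 2.63 CPM in WT CD and at 4.89, 5.49 and 5.79 CPM in HoipA-KO CD, and the groups overlapped (log2 fold change 0.12 ± 0.31, SE, adjusted p = 0.788). Usp18, the protease that removes ISG15 and restrains receptor signalling, lay at 2.87, 4.82 and 2.36 CPM and at 3.03, 3.24 and 2.95 CPM (adjusted p = 0.504). None of the 8 other antiviral effectors passed the test on CD, with 0 at an unadjusted p under 0.05 and 0 by DESeq2. Ifi35, a leucine zipper protein, had values of 38.5, 28.2 and 13.0 CPM in WT CD and 25.5, 23.7 and 33.3 CPM in HoipA-KO CD. Rsad2, which encodes viperin, had values of 13.9, 17.3 and 7.73 CPM and of 23.6, 23.8 and 12.7 CPM. Both overlapped between the groups. The dynamin-like GTPase gene Mx1 stayed low, at 0.682, 1.71 and 1.97 CPM in WT CD and 1.88, 1.76 and 1.53 CPM in HoipA-KO CD. Mx2 was at 1.12, 2.42 and 1.66 CPM and at 1.40, 0.853 and 1.23 CPM, and its estimate of −0.58 ± 0.51 (SE) had an adjusted p of 0.393.

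Among the sensors and transcription factors only Dhx58, which encodes the RNA helicase LGP2, was called on CD. It lay at 6.94, 4.45 and 28.1 CPM in WT CD and at 10.3, 12.2 and 11.7 CPM in HoipA-KO CD. The log2 fold change was 1.04 ± 0.29 (SE, adjusted p = 0.0201) with 11 libraries and −0.28 with 12 (adjusted p = 0.728). The highest value of all 12 libraries, 28.1 CPM, was that of WT CD replicate 3, the library with the sperm cell markers. It was the highest library for 23.3% of all tested genes. Irf7, the transcription factor that amplifies interferon output, lay at 22.5, 22.7 and 9.16 CPM in WT CD and at 14.2, 13.6 and 16.0 CPM in HoipA-KO CD. Its estimate was −0.60 ± 0.32 (SE, adjusted p = 0.167). Stat2 was at 25.7, 23.6 and 15.6 CPM in WT CD and 28.9, 33.2 and 28.3 CPM in HoipA-KO CD, apart in every library though not past the threshold (adjusted p = 0.153). Irf9 lay at 20.8, 66.6 and 12.8 CPM in WT CD and at 32.3, 33.8 and 31.8 CPM in HoipA-KO CD. The value of 66.6 CPM belonged to WT CD replicate 2, the library with 19103 CPM of epididymal markers, and the part of these cells in it was not tested. With 1 WT CD library left in the fit, the log2 fold change of Irf9 was −1.01 without replicate 1 and 0.70 without replicate 2. Irf9 lies at chr14:55603985-55610030, directly after the targeted gene Rnf31 at chr14:55591713-55603674.

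Within the Gbp and Irg families the Irg genes Irgm1 and Ifi47 rose on CD, and the other 7 did not pass the test. Without WT CD replicate 1, WT CD replicate 2, HoipA-KO CD replicate 1, HoipA-KO CD replicate 2 or HoipA-KO HFD replicate 1, only 1 of the 9 was called. Both encode immunity-related GTPases, and Irgm1 regulates the family and autophagy. Irgm1 lay at 23.4, 23.7 and 12.7 CPM in WT CD and at 37.1, 37.3 and 30.4 CPM in HoipA-KO CD, a log2 fold change of 0.60 ± 0.18 (SE, adjusted p = 0.0266). Ifi47 lay at 7.70, 8.01 and 5.58 CPM and at 15.6, 14.1 and 13.9 CPM, a log2 fold change of 0.92 ± 0.19 (SE, adjusted p = 0.00548). Irgm2 lay at 23.0, 19.2 and 13.5 CPM and at 30.4, 24.9 and 21.1 CPM, and these groups overlapped. The Gbp genes encode guanylate-binding proteins that coat vacuoles of intracellular microbes. All 4 had negative estimates, from −0.51 to −0.20, and none passed the test, with 0 at an unadjusted p under 0.05 and 0 by DESeq2. Gbp2 lay at 79.6, 39.9 and 30.4 CPM in WT CD and at 58.8, 43.4 and 40.8 CPM in HoipA-KO CD, so the spread between WT pools exceeded the difference between groups.

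The 6 membrane, nuclear and secreted members were the most uniform class on CD, with 4 higher and all 6 estimates positive, between 0.36 and 1.30. Lgals3bp, which encodes a secreted galectin-3-binding glycoprotein, lay at 203, 141 and 99.1 CPM in WT CD and at 266, 249 and 254 CPM in HoipA-KO CD (log2 fold change 0.61 ± 0.21, SE, adjusted p = 0.0421). Ifitm3, whose product blocks virus entry at endosomes, lay at 103, 80.7 and 47.7 CPM and at 155, 111 and 176 CPM (log2 fold change 0.71 ± 0.22, SE, adjusted p = 0.0288). Trim30a, a tripartite-motif regulator of innate signalling, lay at 13.3, 11.2 and 8.67 CPM and at 30.9, 36.6 and 20.9 CPM (log2 fold change 1.30 ± 0.27, SE, adjusted p = 0.00496). In each of these 3 genes every HoipA-KO library lay above every WT library. The Lgals3bp call was the least stable of the 11, passing in 9 of 24 alternatives. It was lost without WT CD replicate 2 (0.38, adjusted p = 0.218), any 1 HoipA-KO CD library, WT HFD replicate 2 or any 1 HoipA-KO HFD library. Irgm1 passed in 13, Ifitm3 in 15, Dhx58 in 16 and Sp100 in 21 of the 24, and the other 6 called genes passed in all 24. Sp100, a nuclear body protein gene named after its values were seen, lay at 50.2, 30.4 and 19.1 CPM and at 69.6, 72.8 and 66.5 CPM (log2 fold change 0.83 ± 0.23, SE, adjusted p = 0.0184). Parp14, which encodes an ADP-ribosyltransferase, and Bst2, which encodes tetherin, had adjusted p of 0.0728 and 0.165.

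The genes that rose on CD were chosen as higher in HoipA-KO CD, where macrophage markers were also higher. A shared direction between these groups follows from that choice, and within a group the genes did not all follow the markers. The 9 markers Adgre1, Cd68, Csf1r, Itgam, Mertk, Cd14, Fcgr1, Lyz2 and Mrc1, none at 0 in every library, summed to 365 to 591 CPM in WT CD and to 8275 to 11715 CPM in HoipA-KO CD. On CD 8 of the 9 were higher, beside 18.9% of all genes. They summed to 1659 to 4974 CPM in WT HFD and to 5976 to 10036 CPM in HoipA-KO HFD. In HoipA-KO CD the pool with the most markers, replicate 2, had the highest Oas1a, Oas3, Dhx58, Irgm1, Sp100 and Trim30a and the lowest Ifitm3 and Lgals3bp. In HoipA-KO HFD the pool with the most markers, also replicate 2, had the lowest Oas1a, Oas3, Oasl2, Dhx58 and Ifitm3 and the highest Trim30a. In whole tissue, fewer cells of a type and less RNA per cell cannot be told apart, and the part of macrophages in the levels of the members was not tested. The promoter cores did not follow the calls, since 5 of the 10 called members with a window and 14 of the 21 members not called held an ISRE core. Oasl1, Oasl2, Ifi47, Lgals3bp and Sp100 were called and had no such match in the window, which says nothing of sites elsewhere.

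**Figure D4:**
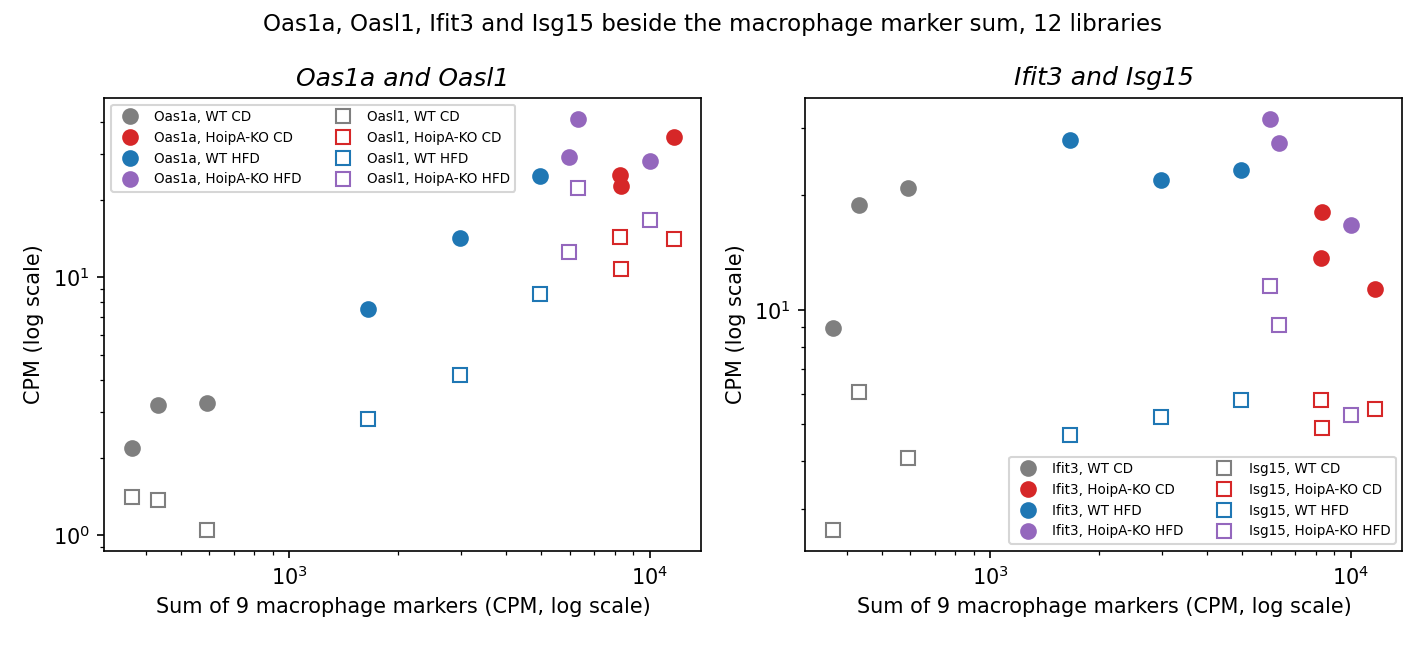
CPM of Oas1a and Oasl1 (left) and of Ifit3 and Isg15 (right) in each of the 12 libraries against the summed CPM of 9 macrophage markers, on log axes. The 3 WT CD libraries are at the low end of the x axis, between 365 and 591 CPM, and also hold the lowest Oas1a and Oasl1 values, while Ifit3 and Isg15 in HoipA-KO CD lie within the WT CD range at 8275 to 11715 CPM of markers.

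The genotype comparison on HFD asked the same of obese mice. In HoipA-KO HFD 4 of the 39 genes were higher than in WT HFD, namely Oasl1 and Oasl2 and the GTPase genes Irgm1 and Ifi47, and 0 were lower. That is 10.3% called higher, where edgeR's quasi-likelihood test called 11.8% of all genes, 4.2% higher and 7.62% lower. The median log2 fold change was 0.25 over the members and 0.06 over all genes. At an unadjusted p under 0.05 the counts were 13 higher and 1 lower, beside 5812 of all 18427 genes in either direction. DESeq2's Wald test called 9 higher and 1, Gbp7, lower, beside 11.8% and 12.1% of all genes. With all 12 libraries only Oasl2 and Ifi47 passed, where 0.531% of all genes were called higher. All 4 were also called on CD. The count was 1 without WT HFD replicate 1, WT HFD replicate 2 or HoipA-KO HFD replicate 3. Over all genes those fits called 42 of 18287, 38 of 18349 and 107 of 18313 higher. The member count was 7 without WT HFD replicate 3, beside 1149 of 18376 genes.

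Oasl1 lay at 2.82, 4.19 and 8.62 CPM in WT HFD and at 12.5, 16.7 and 22.1 CPM in HoipA-KO HFD. The highest WT library stayed below the lowest HoipA-KO library, with a log2 fold change of 1.73 ± 0.39 (SE, adjusted p = 0.026, and 0.0513 with 12 libraries). Oasl2 lay at 19.6, 21.8 and 30.7 CPM and at 44.9, 37.3 and 58.0 CPM, a log2 fold change of 0.98 ± 0.20 (SE, adjusted p = 0.0213). Oas1a lay at 7.54, 14.2 and 24.7 CPM in WT HFD and at 29.2, 28.2 and 41.3 CPM in HoipA-KO HFD. The groups did not overlap, but the estimate of 1.10 ± 0.37 (SE) had an adjusted p of 0.0807. Across the list 9 members lay above all WT HFD values and 1, Gbp7, lay below them, beside 20.6% and 23.7% of all genes.

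Irgm1 lay at 21.9, 24.6 and 29.3 CPM in WT HFD and at 37.2, 38.8 and 48.9 CPM in HoipA-KO HFD, a log2 fold change of 0.74 ± 0.16 (SE, adjusted p = 0.0235, and 0.114 with 12 libraries). Ifi47 lay at 10.6, 11.4 and 11.3 CPM and at 19.5, 19.7 and 29.1 CPM, a log2 fold change of 1.06 ± 0.17 (SE, adjusted p = 0.0102). On CD the estimates of these GTPase genes had been 0.60 and 0.92. Gbp7, named after its values were seen, lay on the other side, at 30.0, 27.8 and 24.8 CPM in WT HFD and 14.8, 14.5 and 19.7 CPM in HoipA-KO HFD (log2 fold change −0.73 ± 0.23, SE, adjusted p = 0.064). The 4 Gbp genes, which lie together within chr3:142496934-142638008, again had negative estimates, from −0.73 to −0.01.

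**Figure D5:**
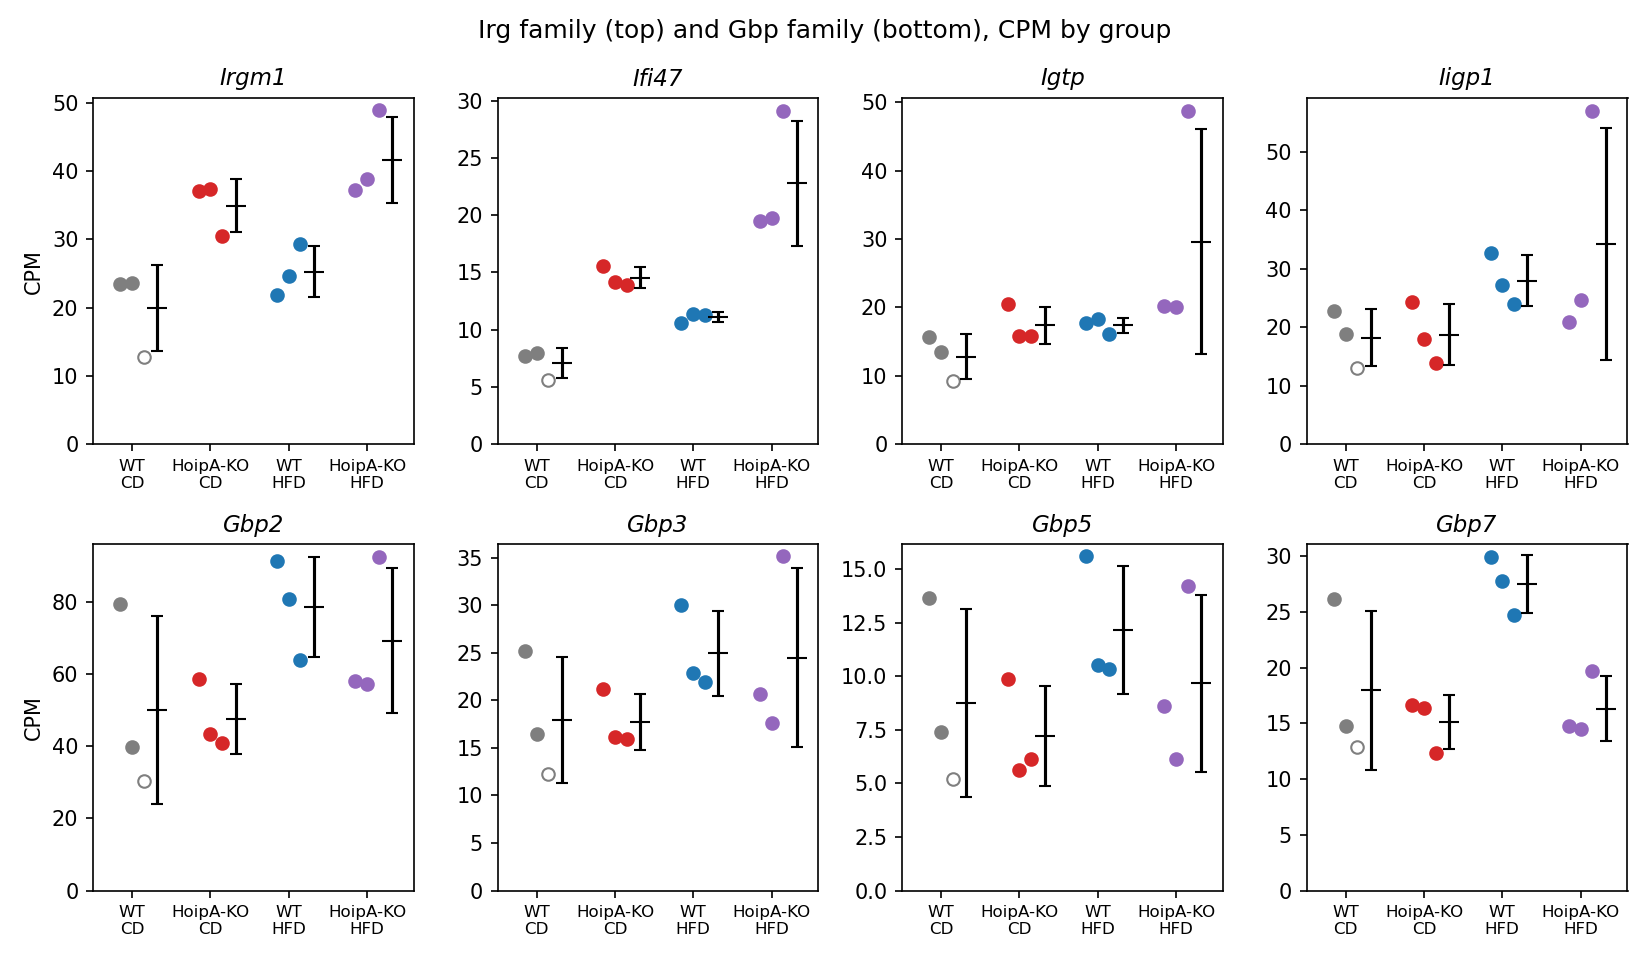
CPM of Irgm1, Ifi47, Igtp and Iigp1 (top) and of Gbp2, Gbp3, Gbp5 and Gbp7 (bottom) in each library, with the black bar giving the mean ± SD of the 3 libraries of a group; the open circle is WT CD replicate 3. Irgm1 and Ifi47 separate the genotypes on both diets, and Igtp and Iigp1 have 1 high library, HoipA-KO HFD replicate 3, at 48.7 and 57.0 CPM.

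Several members differed widely between the pools of HoipA-KO HFD. Irf7 lay at 16.9, 15.4 and 19.6 CPM in WT HFD and at 43.0, 15.3 and 31.4 CPM in HoipA-KO HFD (log2 fold change 0.80 ± 0.29, SE, adjusted p = 0.0975). Isg15 lay at 4.68, 5.23 and 5.80 CPM and at 11.6, 5.31 and 9.12 CPM (log2 fold change 0.74 ± 0.28, SE, adjusted p = 0.11). Ifit3 lay at 28.0, 22.0 and 23.3 CPM and at 31.8, 16.7 and 27.4 CPM. In these 3 genes replicates 1 and 3 were above replicate 2, which lay within the WT HFD range for Isg15 and below it for Irf7 and Ifit3. Igtp and Iigp1, named after their values were seen, followed another split, with 20.2, 20.1 and 48.7 CPM and 20.9, 24.7 and 57.0 CPM in HoipA-KO HFD. For these GTPases replicate 3 alone was high. Over the list, replicate 3 was the highest of its group for 30 of the 39 members and replicate 2 the lowest for 29. Replicate 1 was the pool with 1608 CPM of epididymal markers and 79.0 CPM of neutrophil markers, against 4.31 and 11 CPM of neutrophil markers in the other pools of its group. In replicates 1, 2 and 3 the monocyte markers summed to 149, 51.4 and 85.8 CPM, and the macrophage markers to 5976, 10036 and 6344 CPM. The part of these cells in the values was not tested.

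Other effectors and factors overlapped or nearly so on HFD. Dhx58 lay at 7.40, 7.74 and 12.7 CPM in WT HFD and at 14.4, 12.5 and 17.0 CPM in HoipA-KO HFD (adjusted p = 0.104). Irf9 lay at 23.8, 26.1 and 33.3 CPM and at 37.7, 34.6 and 46.4 CPM, with the groups apart and an adjusted p of 0.315. Stat2, its partner in the type I complex, lay at 34.4, 30.9 and 35.6 CPM and at 36.0, 32.4 and 45.9 CPM. These 3 genes of sensing and signalling did not pass the test. Usp18 lay at 3.88, 3.71 and 4.10 CPM and at 4.68, 2.93 and 6.03 CPM. Among the antiviral effectors, Ifi35 lay at 32.6, 30.0 and 29.1 CPM and at 31.5, 25.8 and 35.2 CPM, and Rsad2 at 19.4, 18.2 and 19.9 CPM and at 18.2, 20.04 and 24.3 CPM. The groups overlapped in each. Mx1 lay at 1.66, 1.83 and 2.14 CPM and at 3.75, 1.69 and 3.77 CPM, and Mx2 at 1.73, 1.08 and 1.17 CPM and at 1.86, 0.710 and 2.20 CPM, both lowest of the HoipA-KO pools in replicate 2. The GTPase genes Irgm2, at 31.4, 30.7 and 31.4 CPM and at 28.1, 28.5 and 47.5 CPM, and Gbp2, at 91.5, 80.8 and 64.0 CPM and at 58.0, 57.4 and 92.5 CPM, were highest of the HoipA-KO pools in replicate 3. The 8 antiviral effectors had estimates from −0.34 to 0.72, with 0 called by edgeR or DESeq2 and 1 at an unadjusted p under 0.05.

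The membrane, nuclear and secreted members, with positive estimates throughout on CD, had 0 calls on HFD by edgeR, with 2 at an unadjusted p under 0.05, and DESeq2 called Ifitm3. Ifitm3 lay at 116, 126 and 111 CPM in WT HFD and at 177, 146 and 211 CPM in HoipA-KO HFD, apart in every library (log2 fold change 0.61 ± 0.19, SE, adjusted p = 0.0659). Lgals3bp lay at 282, 339 and 400 CPM and at 293, 319 and 353 CPM, with complete overlap (log2 fold change −0.06 ± 0.18, SE). Trim30a lay at 20.5, 25.2 and 32.7 CPM and at 29.9, 31.3 and 30.9 CPM. For both of these genes the HoipA-KO HFD values fell inside the WT HFD range.

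Feeding HFD to WT mice raised 7 of the 39 genes, Oas1a, Oas3, Oasl1, Oasl2, Lgals3bp, Parp14 and Trim30a, and lowered 0. That is 17.9% of the members, where edgeR's quasi-likelihood test called 14.8% of all genes, 9.35% higher and 5.47% lower. With all 12 libraries the same test called 9 higher, where 1636 of 18074 genes were. The added genes were Ifit2 (log2 fold change 0.88, adjusted p = 0.0424) and Sp100 (0.93, adjusted p = 0.0497). DESeq2's Wald test on 11 libraries also called 9 higher, Ifit2 and Sp100 among them, where 2396 of 18427 genes were. The median log2 fold change was 0.43, beside 0.00 over all genes, and 22 members lay above both WT CD values in all 3 WT HFD libraries while 1, Irf7, lay below, against 24.2% and 18.2% of all genes. This comparison shares its WT CD libraries with the genotype comparison on CD, so their results are not independent. With the same reference, Oas1a was estimated at 2.26 ± 0.46 for diet and 3.13 ± 0.48 for genotype, Oasl1 at 2.11 ± 0.47 and 3.46 ± 0.50, and Oasl2 at 0.97 ± 0.23 and 1.36 ± 0.24 (log2 fold change ± SE). Lgals3bp was estimated at 0.99 ± 0.21 for diet (adjusted p = 0.0159) and Trim30a at 1.10 ± 0.26 (adjusted p = 0.0255). None of the 7 passed in all 24 alternatives, with a range from 6 for Oas3 to 21 for Oas1a. None of the 9 Gbp and Irg genes passed, with 2 at an unadjusted p under 0.05, beside 5907 of all 18427 genes, and 0 by DESeq2. All 9 estimates were nevertheless positive, from 0.11 to 0.57.

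The WT HFD pools differed among themselves. Oas1a, Oasl1 and Oasl2 were each lowest in WT HFD replicate 1 and highest in WT HFD replicate 3, and the macrophage marker sums of the 3 libraries were 1659, 2978 and 4974 CPM. Gbp2 was highest in replicate 1 and lowest in replicate 3, at 91.5, 80.8 and 64.0 CPM. The count of 7 was 3 without WT HFD replicate 2, where 982 of 18349 genes were called higher. It was 1 without WT HFD replicate 3, where 864 of 18376 genes were. Without WT CD replicate 2, WT CD was represented by 1 library assumed to vary like the other groups, so no call is read from that fit. The log2 fold changes were then 2.26 for Oas1a and 2.33 for Oasl1.

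In HoipA-KO mice HFD against CD gave 0 calls among the 39 members, as it did among all 18427 genes (0% called) by edgeR. At an unadjusted p under 0.05 there were 10 members, all higher, among 415 genes, and DESeq2 called 0 members and 7 genes. All 39 estimates were positive, from 0.04 to 1.02 with a median of 0.43, where 47.2% of all genes had a positive estimate and the median was −0.01. The values of 8 members lay above all HoipA-KO CD values and those of 0 lay below, beside 3.4% and 2.51% of all genes. Irf7 had the largest estimate, 1.02 ± 0.29 (SE), and Ifit3 was estimated at 0.80 ± 0.24, with replicates 1 and 3 of HoipA-KO HFD above replicate 2 as given above. Oas1a and Trim30a, high already on CD, were estimated at 0.24 ± 0.37 and 0.04 ± 0.23 (SE).

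The interaction of genotype and diet, which tests whether the genotype difference itself changed with diet, gave 0 calls among the members by edgeR. Of all genes 3.91% were called, 0.331% higher and 3.58% lower. At an unadjusted p under 0.05 there were 1 higher and 4 lower members, beside 4228 of all 18427 genes in either direction. DESeq2 called 1 higher, Irf7, and 3 lower, Oas1a, Oasl1 and Trim30a, beside 4.86% and 7.9% of all genes. The edgeR estimates were −2.02 ± 0.57 for Oas1a (SE, adjusted p = 0.0845), −1.73 ± 0.59 for Oasl1 (adjusted p = 0.127) and 1.40 ± 0.43 for Irf7 (adjusted p = 0.102). Oas1a also passed in edgeR without WT HFD replicate 1 (−2.35, adjusted p = 0.0169) and when WT CD consisted of replicates 2 and 3 (−2.25, adjusted p = 0.0355), and in 3 of 23 alternatives in all.

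Upstream of the members, the ligand genes were barely detected. All 21 listed interferon genes failed the filter on low counts. Ifnb1 had 0 counts in all 12 libraries, where 3 counts would equal 0.0524 to 0.0996 CPM, so its transcript was not detectable at this depth in pooled tissue. Ifng, the type II interferon gene, reached at most 0.196 CPM, in HoipA-KO HFD replicate 3, the library with the highest Igtp and Iigp1. That library was also the highest of the 12 for 21 of the 39 members, beside 6.07% of all tested genes, and a link to Ifng was not tested. Ifng in the other 11 libraries was at most 0.14 CPM. The receptor list had 3 of 6 genes higher on CD and 0 on HFD, beside 18.9% and 4.2% of all genes. It was led on CD by Il10rb, the shared chain of the interferon lambda and interleukin-10 receptors, with a log2 fold change of 2.01 ± 0.32 (SE, adjusted p = 0.00155).

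Irf1, a transcription factor induced by interferon, had log2 fold changes of 0.01 on CD and 0.17 on HFD and did not pass the test (adjusted p = 0.974 and 0.628). Irf5, a factor known from macrophages, lay at 11.5, 9.72 and 7.01 CPM in WT CD and at 154, 170 and 154 CPM in HoipA-KO CD, a log2 fold change of 3.95 ± 0.40 (SE, adjusted p = 0.000452), and the HoipA-KO against WT estimate on HFD was 1.25 (adjusted p = 0.0315, and 0.0597 with 12 libraries). Of the 12 kinases and transcription factors listed, 5 were higher on CD and 1 on HFD, beside 18.9% and 4.2% of all genes. The nucleic acid sensing list had 8 of 13 higher on CD, beside 18.9% of all genes. Tlr8, an endosomal RNA receptor, rose there from 2.19, 2.06 and 1.81 CPM to 59.0, 90.8 and 36.0 CPM. On HFD 1 of the 13 was higher, Trex1, the cytosolic DNA exonuclease, at 0.85, and 1 was lower, Tlr3, at −0.71 (adjusted p = 0.031 and 0.0392, neither past the threshold with 12 libraries). Over all genes 4.2% were higher and 7.62% lower on HFD.

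Other genes known to respond to interferon differed in direction. The chemokine gene Cxcl9, a marker of type II interferon, lay at 56.8, 29.4 and 15.0 CPM in WT CD and at 17.7, 7.73 and 8.13 CPM in HoipA-KO CD, and fell by 1.92 on the log2 scale (adjusted p = 0.0122). Cxcl10 did not pass (adjusted p = 0.27), and Ccl5, a chemokine of T cells and macrophages, rose by 2.02 (adjusted p = 0.0196). Of 11 other Gbp and Irg genes 0 were higher and 2 were lower on CD, Gbp11 and Irgc1, beside 18.9% and 18.8% of all genes. Gbp11 was lower in HoipA-KO than in WT, with a log2 fold change of −2.24 for CD (adjusted p = 0.00113), while HFD gave −1.91 (adjusted p = 0.0113). Irgc1 read 484 CPM in WT CD replicate 3 and 9.96 CPM in WT CD replicate 2, the pools with the most sperm cell markers, and at most 0.463 CPM elsewhere. Of 31 tested other interferon-induced genes 18 were higher and 3 lower on CD, beside 18.9% and 18.8% of all genes. On HFD 2 were higher and 1 lower, beside 4.2% and 7.62% of all genes. Ifi27l2a, an interferon alpha-inducible gene, lay at 617, 242 and 178 CPM in WT CD and at 62.2, 48.4 and 78.2 CPM in HoipA-KO CD, and at 950, 855 and 647 CPM and 171, 46.4 and 165 CPM on HFD. The log2 fold change of HoipA-KO against WT was −2.74 for CD (adjusted p = 0.00395), while HFD gave −2.67 (adjusted p = 0.0153). Adipocyte markers were also lower, 9 of 10 on CD and 10 of 10 on HFD, beside 18.8% and 7.62% of all genes. The part of adipocytes in the Ifi27l2a values was not tested. Isg20, an exonuclease gene, was lower on CD with 223 CPM in WT CD replicate 2, the pool with the epididymal markers, and 20.2 and 32.6 CPM in the other WT CD pools.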

How the data were processed

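Bulk RNA-seq was available for 12 GWAT libraries in 4 groups of 3, each from 3 pooled mice. Per the labels and the submitters' processing notes, the authors trimmed reads with Trim Galore 0.6.7, aligned them with STAR 2.7.10a and quantified genes with Salmon 1.5.2 on a GRCm38 annotation, and deposited estimated counts per gene, not normalized. Deposited tables of the authors' own DESeq2 comparisons hold fold changes and p-values and were not used. Estimated counts depend on how reads shared by near-identical genes were divided.

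Estimated counts were rounded to whole numbers and tested in R 4.3.3 with edgeR 4.0.16 (TMM factors, filterByExpr, quasi-likelihood test, Benjamini-Hochberg adjustment over 18427 genes, threshold 0.05, prior count 0.125). The fit held 11 libraries of the 4 groups, without WT CD replicate 3, as in the study's own comparisons. SE was the absolute log2 fold change over the square root of F. CPM used TMM factors over 12 libraries. At 30513446 to 60540225 counts per library, 3 counts equal 0.0524 to 0.0996 CPM. Rows without a gene symbol numbered 59. Promoter windows and positions came from RefSeq and shared 31-base words from GENCODE M21 transcripts. Scripts were tested on simulated counts. Alternatives were DESeq2 1.42.0, other scalings, filters, libraries and a replicate block. Same-numbered HoipA-KO CD and HoipA-KO HFD libraries correlated at 0.14, 0.50 and 0.28 in their deviations from the group means. Libraries with different numbers were not correlated for reference, so these values cannot tell whether the numbers, taken from the labels, pair the libraries. The main fit had no replicate block, so its test of HFD against CD in HoipA-KO did not use such a pairing.

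The members, their classes and the pathway and marker lists were chosen with earlier results of these data known. Values in every library are given, per class, for the 2 members with the highest mean CPM and the member with the largest absolute log2 fold change in each genotype comparison and in HFD against CD in WT. Outside the list, Rnf31, Ifnb1, Ifng, Irf1, Cxcl9 and Cxcl10 are named, with the called gene of largest change per pathway list and genotype comparison. A further gene of that rule is not reported here. Other genes were named after their values were seen.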

Additional observations from a re-analysis of the deposited data

Results flagged for a closer look

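Dhx58 read 28.1 CPM in WT CD replicate 3, a library outside the 11-library fit, against 4.45 to 17.0 CPM in the other 11 libraries. That library held the highest of the 12 values for 23.3% of all tested genes. The same library held 8676 CPM of 8 sperm cell markers, and the part of those cells in the Dhx58 value was not tested.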

How the results depend on the processing

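Limits: WT CD rests on 2 libraries in the fit, each library is a pool, and low genes such as Mx1 and Oas3 are read at few CPM. On CD 11 members were higher and 0 lower. Leaving out 1 library gave 7 to 11 higher and 0 to 1 lower, and leaving out the 2 libraries with high epididymal markers, an alternative chosen after seeing the data, gave 6 and 1 (Gbp7). The 4 Ifit and Oas calls stayed at 4 to 4 in number without any 1 library, and the 2 Gbp and Irg calls became 1 to 2. Those were 1 with no filter, with protein-coding genes only, with only the 2 groups compared, without the 2 epididymal libraries and with the replicate block in 11 or 12 libraries. Dhx58 was −0.28 with 12 libraries, −0.68 with WT CD replicates 1 and 3 and −0.55 with 2 and 3. The cause was not tested.

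On HFD the 4 higher became 2 with all 12 libraries, 2 with WT CD replicates 1 and 3, 9 by DESeq2 and 1 to 7 without 1 library. Over all genes the first 3 of these fits called 96 of 18074, 151 of 18556 and 2178 of 18427 higher. That count was 38 of 18349 without WT HFD replicate 2 and 1149 of 18376 without WT HFD replicate 3. The 0 lower became 1 (Gbp7) with at least 10 counts in every library, protein-coding genes only, WT CD replicates 2 and 3, DESeq2, only the 2 groups compared or without the 2 epididymal libraries, and 0 to 1 without 1 library. The 2 Ifit and Oas calls became 1 with 12 libraries, 1 with WT CD replicates 1 and 3, 4 by DESeq2 and 0 to 4 without 1 library. The 2 Gbp and Irg calls became 1 with 12 libraries, with WT CD replicates 1 and 3 or 2 and 3, and with the replicate block in 12, and 1 to 2 without 1 library.

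For HFD against CD in WT the 7 higher became 17 with WT CD replicates 2 and 3, 3 with the replicate block, 0 with only the 2 groups compared or without the 2 epididymal libraries, and 0 to 10 without 1 library, where 0 to 1 (Irf9) were lower. The 4 Ifit and Oas calls became 2 with the replicate block, 0 with only the 2 groups compared or without the 2 epididymal libraries, and 0 to 4 without 1 library. The 0 Gbp and Irg calls became 4 with WT CD replicates 2 and 3 and 0 to 1 without 1 library. Over all genes HFD against CD in WT called 0 of 17200 with only the 2 groups compared, so 0 members followed from that. It called 3338 of 19416 genes higher with WT CD replicates 2 and 3, and 1195 of 18427 with the replicate block. Fits without 1 WT CD library or without the 2 epididymal libraries left 1 WT CD library. Their member counts therefore rest on a spread assumed from the other groups. For the interaction, WT CD replicates 2 and 3 gave 1882 of 19416 genes lower. Among the members, HFD against CD in HoipA-KO gave 0 throughout. The interaction gave 1 higher and 3 lower by DESeq2, 5 lower with WT CD replicates 2 and 3, and 0 to 1 higher and 0 to 2 lower without 1 library.

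In the main fit the replicate numbers were not taken to pair the samples in any comparison, and the replicate block is only an alternative. For the comparisons that include WT libraries, same-numbered libraries correlated from −0.37 to 0.37 in their deviations. With the replicate block HFD against CD in HoipA-KO also gave 0 calls. The mean class difference in WT CD was −1.84 with a pseudocount of 0.1, and an ISRE core on 1 strand only was in 9 windows. Over 528 refits of 22 called gene comparisons 409 kept direction and call, 116 lost the call and 3 changed sign. In all alternatives tried Oas1a, Oas3, Oasl1, Oasl2, Ifi47 and Trim30a were called on CD, and Ifi47 on HFD.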
